A study of Homo sapiens with 8 samples.

Results

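CPT1A, CPT2, ACADM, ACADVL, HADHA, HADHB, ACSL1 and ACSL5, which encode enzymes that carry long-chain fatty acids into mitochondria and break them down there, were followed in RNA-seq of ESO26 cells. The 8 genes were taken by name, as genes of the pathway, by a rule that uses no measured value, and all 8 were found among the 30755 gene symbols of the table. ESO26 is an established line of oesophageal adenocarcinoma cells, and its expression was measured in 2 control libraries and in 2 libraries after knockdown of HNF4A with a small interfering RNA (siRNA). The labels give no further genotype, treatment or time for either group and do not describe the control. They do not say whether the 2 libraries of a group came from separate cultures, so each p-value measures only the spread between these libraries.

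Long-chain fatty acids are first joined to coenzyme A by acyl-CoA synthetases such as ACSL1 and ACSL5. CPT1A moves the acyl group to carnitine at the outer mitochondrial membrane, the step that malonyl-CoA inhibits, and CPT2 moves it back to coenzyme A inside. Acyl-CoA dehydrogenases (ACADVL for very long chains, ACADM for medium chains) and the trifunctional protein, built from HADHA and HADHB, then shorten the chain. In liver the acetyl-CoA so formed can be turned into ketone bodies. HNF4A, a nuclear receptor of liver and intestine, is known there as a regulator of lipid metabolism genes. None of the 8 genes is itself an enzyme of ketone synthesis.

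HADHA and HADHB, which encode the subunits of 1 enzyme complex, are neighbours that are transcribed away from each other, and the stretch before each start site is shown because the genes share it. Neither gene passed the test for a change after the knockdown (adjusted p = 0.255 for HADHA and 0.131 for HADHB). In RefSeq (GRCh38.p14) the start sites lie 307 bases apart on chromosome 2. The 250 bases before the HADHA start lie at chr2:26244633-26244882 on the minus strand, and those before the HADHB start at chr2:26244689-26244938 on the plus strand. They share 194 bases, from 26244689 to 26244882, read in opposite directions. Capitals mark GC boxes, the motif GGGCGG on either strand.
HADHA: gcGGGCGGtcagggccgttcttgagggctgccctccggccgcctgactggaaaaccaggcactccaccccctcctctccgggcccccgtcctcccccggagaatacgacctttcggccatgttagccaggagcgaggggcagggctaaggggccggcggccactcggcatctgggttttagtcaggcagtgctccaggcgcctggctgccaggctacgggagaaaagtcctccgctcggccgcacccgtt
HADHB: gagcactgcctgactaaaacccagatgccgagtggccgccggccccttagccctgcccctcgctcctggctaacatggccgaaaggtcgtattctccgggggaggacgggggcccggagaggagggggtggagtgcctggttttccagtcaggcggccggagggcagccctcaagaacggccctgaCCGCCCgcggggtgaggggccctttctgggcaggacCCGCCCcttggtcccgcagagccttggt
The box in the HADHA stretch and the first of the 2 boxes in the HADHB stretch are the same site.

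**Figure D1:**
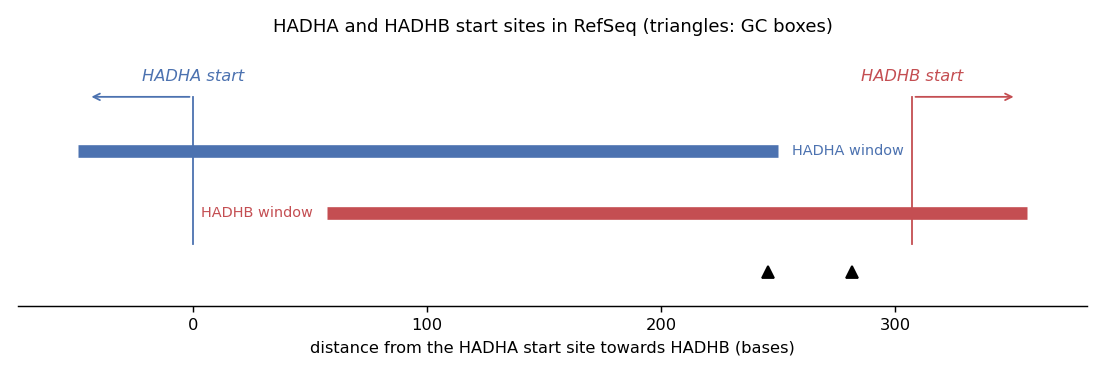
Map of the start sites of HADHA and HADHB, drawn as distance in bases from the HADHA start. Thick lines are the RefSeq windows of 300 bases around each start and triangles are the GC boxes. The starts lie 307 bases apart, the genes point away from each other, and 1 of the 2 boxes lies in both windows.

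Motifs were counted on both strands in a set of RefSeq windows, each from 250 bases before to 50 bases after a start site. In this set 14 windows matched the 8 genes. For ACSL1 and ACSL5 the outermost RefSeq end, on the side where transcription starts, lay outside these windows and was not searched. The GC box lay in 7 of these windows, from 6 genes, and in 44.95% of all 35116 windows. The nuclear receptor core motif AGGTCA was found in 1 window, of ACSL5, and in 13.83% of all windows. The GATA motif AGATAA was found in 1 window, of ACADVL, and in 10.33% of all windows. The HNF4 motif CAAAGTCCA was in none of the 14 windows and in 0.38% of all. No window of these genes held 2 AGGTCA motifs in the same direction with 1 base between them, an arrangement found in 8 windows in all. That arrangement contains the AGGTCA motif itself. The matches describe letters only, and the ChIP-seq peaks of the series were not analysed here at these genes, because their build is hg19 per the submitters' processing notes and no annotation of that build was used.

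The values are normalized counts, a library-scaled number of reads per gene that is not divided by transcript length, so levels are compared between libraries and not between genes. Summed normalized counts ranged from 17912507 to 18613685 per library. Relative to control 1, sequencing depth estimated from the lowest values was 1.10 in control 2 and 1.37 and 1.22 in the knockdown libraries. HNF4A had 4129 and 3937 normalized counts in the controls, against 1140 and 932 after knockdown, or -1.97 on the log2 scale (standard error 0.095, adjusted p = 1.59e-05). In the knockdown libraries 4260 and 4362 genes were listed at 0, against 5479 and 5640 in the controls. Among epithelial markers, all 9 were above 0 in every library, though KRT7 was low, at 15.1 to 28.6. The summed level of the 9 was 152297 and 155974 in the controls, against 145234 and 141048 after knockdown. ERBB2, at 60241 to 64612 across the libraries, was a large part of that sum and was not called. Of the 9 markers 5 were called (55.6%, against 14.1% of all tested genes). KRT8, KRT18, EPCAM and CLDN4 were called lower and KRT19 higher. Markers of other cell types were low. The 9 fibroblast and endothelial markers, 3 of them not in the table, summed to 235 and 147 in the controls, against 302 and 282 after knockdown, and 1, VWF, was called higher. Of the 8 leukocyte markers 5 are in the table, and they summed to 129 to 140 in the controls and to 93.3 to 112 after knockdown. PTPRC, the defining leukocyte gene, was at 0 to 2.05, CD14 at 6.43 to 15.5, CD68 at 28.5 to 64.4 and LYZ at 29.2 to 78.7. Only 3 leukocyte markers were tested, and none was called in limma (1 at an unadjusted p under 0.05). The 6 squamous markers summed to 17.4 to 35.5 and to 20.1 to 38.4, and KRT14 was called higher. The part of depth or of these markers in the results below was not tested, and in bulk RNA fewer cells of a type and less RNA per cell cannot be told apart.

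The 8 genes changed little when HNF4A was lowered. ACADVL rose to 122% of its control mean, and the other 7 genes, at 92.6% to 115% of control, did not pass the test. Log2 fold changes, on the log2(normalized count + 1) scale, ran from -0.11 for HADHA to 0.29 for ACADVL, with a median of 0.055 over the 8 genes and of -0.0073 over all 15577 genes tested. A gene was called when its Benjamini-Hochberg adjusted p over all tested genes was under 0.05 in limma. This held for 1 of the 8 genes, or 12.5%, and for 14.1% of all tested genes (6.02% higher and 8.11% lower), so the share of the 8 genes was near that of the whole table. The whole-table calls, 938 higher and 1264 lower, were 1031 higher and 1027 lower after quantile normalization, and 949 and 967 when control replicate 2 was left out. An unadjusted p under 0.05 was reached by 3 of the 8 genes, ACADVL, HADHB and CPT2, and by 28.9% of all genes. Both knockdown libraries lay on the same side of both controls in 5 of the 8 genes (62.5%) and in 57.0% of all tested genes.

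**Figure D2:**
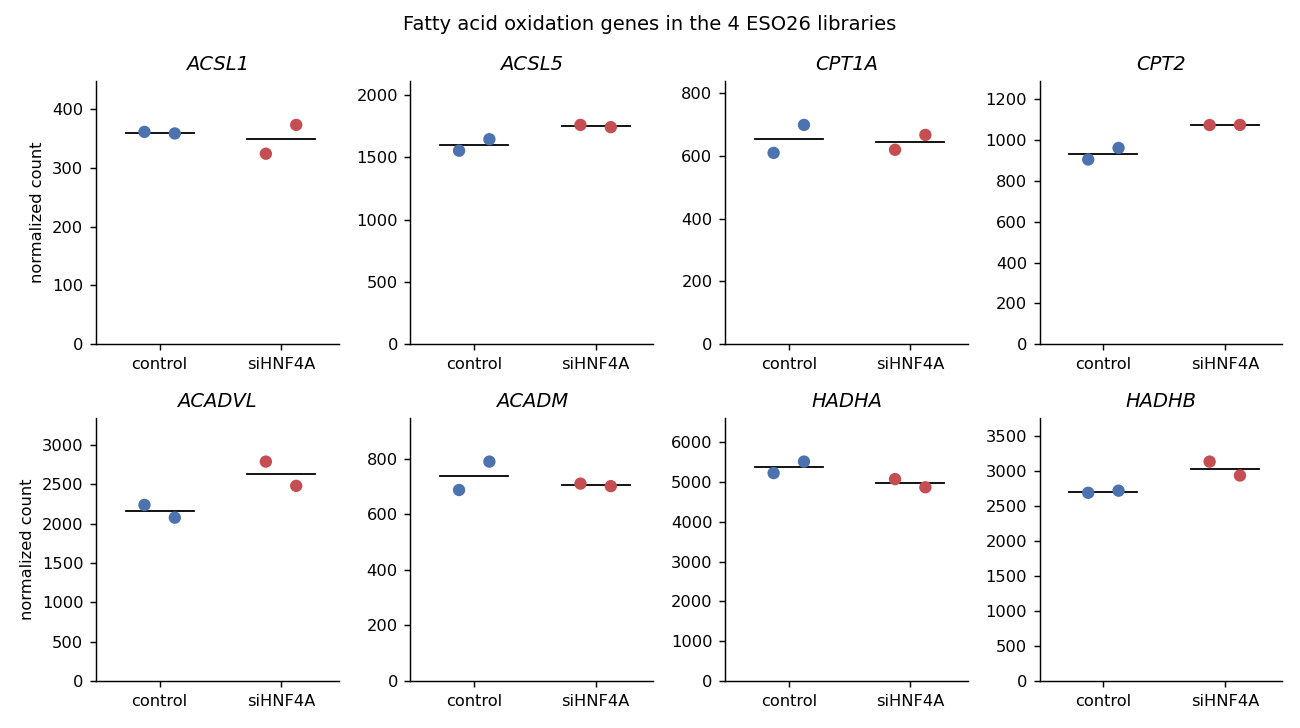
Normalized counts (y axis, from 0, a scale for each gene) of the 8 genes in the control (blue) and HNF4A knockdown (red) libraries; each point is a library and each line the mean of 2. The groups do not overlap for ACSL5, CPT2, ACADVL, HADHA and HADHB, and overlap for ACSL1, CPT1A and ACADM.

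The acyl-CoA synthetases open the pathway. ACSL1, the main synthetase of tissues that burn fat, had 361 and 358 normalized counts in the controls, against 324 and 373 after knockdown. The knockdown libraries lay on either side of the controls, and the log2 fold change was -0.05 with a 95% interval from -0.33 to 0.23. ACSL5, a synthetase that is abundant in intestinal epithelium, had 1554 and 1646 in the controls, against 1761 and 1743 after knockdown. Both knockdown libraries were higher than both controls, and the difference of the means, 0.13 on the log2 scale (standard error 0.073), did not pass the test (adjusted p = 0.274). The 95% interval of the change of ACSL5 ran from -0.033 to 0.30.

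The carnitine palmitoyltransferases form the gate into the mitochondrion. CPT1A, the rate-controlling enzyme of this step in liver, had 610 and 699 normalized counts in the controls, against 620 and 667 after knockdown. The knockdown values fell between the controls, and the log2 fold change was -0.022 with a 95% interval from -0.26 to 0.22 (adjusted p = 0.920). CPT2, its partner at the inner membrane, had 905 and 962 in the controls, against 1074 and 1075 after knockdown. The CPT2 groups did not overlap, and the log2 fold change of 0.20 (standard error 0.084, unadjusted p = 0.0367) was not past the threshold after adjustment (adjusted p = 0.144).

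Of the dehydrogenases, ACADVL was the called gene. It had 2237 and 2075 normalized counts in the controls, against 2788 and 2480 after knockdown, means of 2156 ± 114 and 2634 ± 218 (SD, n = 2 in each group). Both knockdown values exceeded both control values, and the group means differed by 0.29 on the log2 scale (standard error 0.079, adjusted p = 0.0391 in limma). The ACADVL call was lost without control replicate 2 (adjusted p = 0.117), without siHNF4A replicate 1 (0.254), without siHNF4A replicate 2 (0.0512), with all genes above 0 tested (0.152) and without the variance trend (0.237), and its adjusted p ranged from 0.0150 to 0.254 over its alternatives. ACADM had 687 and 789 normalized counts in the controls, against 710 and 701 after knockdown, and both knockdown values lay between the controls. Its log2 fold change was -0.062 with a 95% interval from -0.29 to 0.16.

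In RefSeq ACADVL overlaps DLG4 and lies 75 bases from DVL2. DLG4, a synaptic scaffold gene, had only 21.1 to 26.1 normalized counts across the 4 libraries. DVL2, a Wnt signalling gene, had 444 and 472 in the controls, against 515 and 587 after knockdown. The strand setting of the counting is not given in the sources used here, so reads of overlapping genes may not be separated. CPT2 overlaps CZIB, listed in the table under its older name C1orf123 with 413 and 438 normalized counts in the controls, against 405 and 399 after knockdown. HADHA overlaps GAREM2, listed as GAREML with 118 and 99.3 in the controls, against 79.8 and 53.1 after knockdown. ACSL5 overlaps ZDHHC6, with 682 and 654 in the controls, against 722 and 636 after knockdown.

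Neither subunit of the trifunctional protein passed the test. HADHA, the alpha subunit with hydratase and dehydrogenase activity, had 5223 and 5512 normalized counts in the controls, against 5072 and 4866 after knockdown. HADHB, the beta subunit with thiolase activity, had 2694 and 2724 in the controls, against 3140 and 2941 after knockdown. For each subunit the groups did not overlap, HADHA lower and HADHB higher in the knockdown. The log2 fold change was -0.11 (standard error 0.060, adjusted p = 0.255) for HADHA and 0.17 (standard error 0.066, unadjusted p = 0.0314, adjusted p = 0.131) for HADHB. After quantile normalization the value of HADHA was -0.050 and that of HADHB 0.20.

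**Figure D3:**
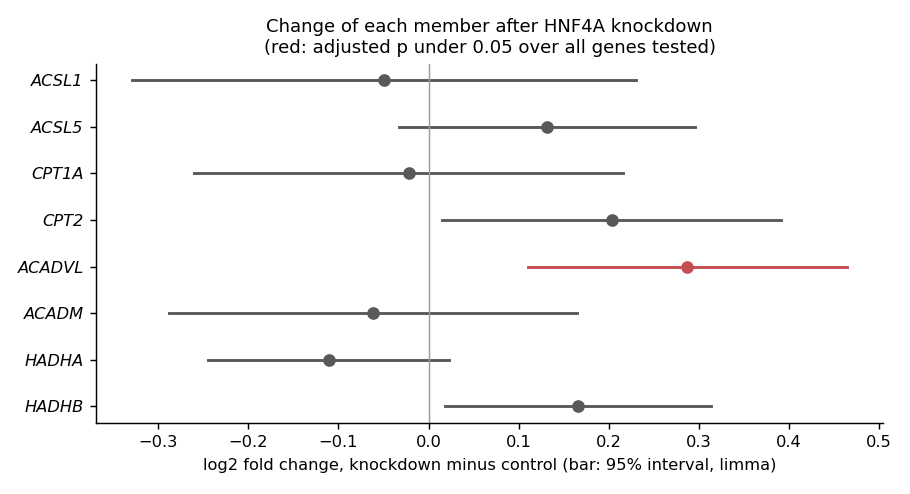
Log2 fold change of each gene, knockdown minus control (x axis), as a point with its 95% interval from limma. The interval excludes 0 for CPT2, ACADVL and HADHB, and ACADVL alone (red) had an adjusted p under 0.05.

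A ratio taken within a library hardly depends on how the library was scaled (1 was added to each value on the log2 scale). For this reason 4 ratios between paired genes of the pathway were compared. The ratio of HADHA to HADHB was 1.94 and 2.02 in the controls, against 1.62 and 1.65 after knockdown. On the log2 scale it went from 0.99 ± 0.043 to 0.71 ± 0.025 (SD, n = 2), a difference of -0.28, and of -0.31 to -0.25 when 1 library was left out. With 2 libraries per group the exact two-sided permutation p was 0.3333, the smallest this design can give, and 0.3333 after adjustment over the 4 ratios.

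The ratio of CPT1A to CPT2 was 0.673 and 0.726 in the controls, against 0.577 and 0.621 after knockdown, a log2 difference of -0.23 (SD 0.077 and 0.075, n = 2 in each group). ACADVL to ACADM was 3.26 and 2.63 in the controls, against 3.93 and 3.54 after knockdown. That log2 difference was 0.35 (SD 0.22 and 0.11), and leaving out control replicate 2 gave 0.20, leaving out control replicate 1 gave 0.50. ACSL1 to ACSL5 was 0.232 and 0.218 in the controls, against 0.184 and 0.214 after knockdown, a log2 difference of -0.18 (SD 0.066 and 0.15) that was -0.072 without siHNF4A replicate 1 and -0.29 without siHNF4A replicate 2. Each of these ratios had the same exact permutation p of 0.3333, and no share over other gene pairs was computed, so nothing is read from the separation of the groups.

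**Figure D4:**
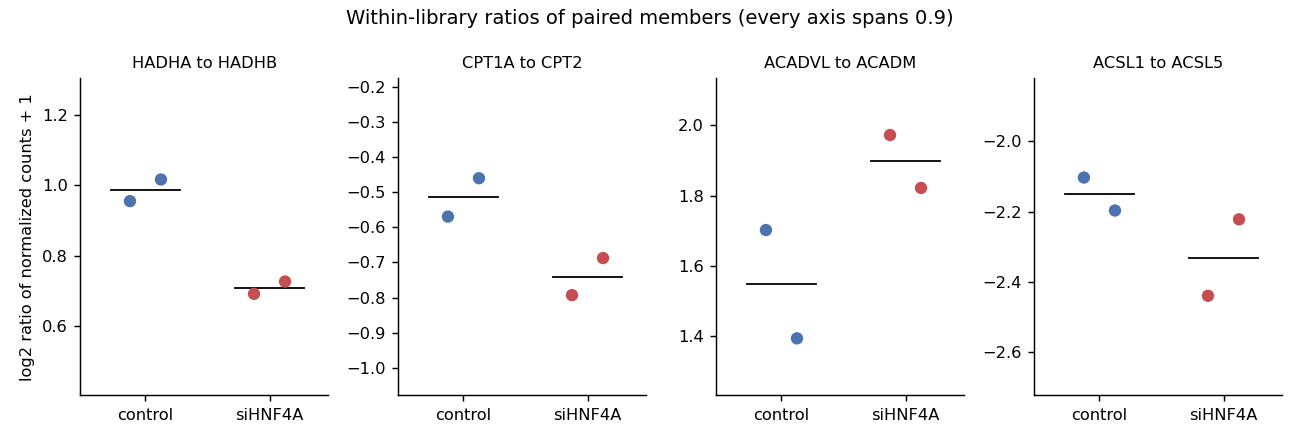
Log2 ratio of normalized counts, each plus 1 (y axis, a span of 0.9 in each panel) between paired genes of the pathway in the control (blue) and knockdown (red) libraries, with the mean of 2 as a line. The ratio of HADHA to HADHB lies at 0.96 and 1.02 in the controls and at 0.69 and 0.73 in the knockdown.

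The rest of fatty acid metabolism was described by 8 further lists with 126 genes, of which 113 passed the filter on low values. Of these 15 were called, 7 higher and 8 lower, which is 13.3% against 14.1% of all tested genes. Their median log2 fold change was 0.015, against -0.0073 over all tested genes. Rescaling moved the split of the calls to 10 higher and 6 lower with quantile normalization, and to 8 higher and 6 lower with median-ratio rescaling. ACSM3, SLC16A1, PEX5 and ACOT7 were called in each of the 4 fits that left out 1 library; the other 11 calls were lost in at least 1. In RefSeq 8 of the 15 called genes overlap another gene, ACSM3, ECI1, SLC16A1, AMACR, RXRB, ESRRA and NCOR1 among them.

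Around the carnitine shuttle, none of 6 tested genes was called in limma, against 14.1% of all tested genes. An unadjusted p under 0.05 was reached by 3 of them, and by 28.9% of all tested genes. CPT1B, the muscle form of the outer transferase, had 127 and 160 normalized counts in the controls, against 260 and 194 after knockdown (log2 fold change 0.65, adjusted p = 0.0517). SLC25A20, the carrier that brings acylcarnitine across the inner membrane, had 210.2 and 249 against 331 and 293 (0.44, adjusted p = 0.0744). CRAT, which handles short acyl groups, had 1245 and 1254 against 1642 and 1392 (0.28, adjusted p = 0.0775). The groups did not overlap in these 3 of the 6 genes (50%), against 57.0% of all tested genes, and they overlapped in the other 3, of which 2 had log2 fold changes below 0. CPT1C, the neuronal form, was low, at 6.25 to 20.7 across the libraries.

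Among the other acyl-CoA synthetases 1 of 8 tested genes was called (12.5%, against 14.1% of all tested genes). ACSM3, a medium-chain synthetase, rose from 196 and 166 normalized counts to 378 and 350, a log2 fold change of 1.01 (standard error 0.14, adjusted p = 0.0021). Both knockdown values lay above both controls, and the change was the largest in size among the 15 called genes of these lists. ACSM3 overlaps the related gene ACSM1 in RefSeq, so its value is uncertain where the counting did not separate them. The long-chain synthetases ACSL3 and ACSL4 had log2 fold changes of -0.16 (adjusted p = 0.213) and -0.081 (0.649), and ACSL6 had 6.69 to 19.8 normalized counts.

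In the mitochondrial spiral 2 of 18 tested genes were called (11.1%, against 14.1% of all tested genes). ECI1, the isomerase that prepares double bonds of unsaturated fatty acids, rose from 731 and 775 normalized counts to 1111 and 1009 (log2 fold change 0.49, adjusted p = 0.0073), and the call was lost without siHNF4A replicate 1 (0.0685). HADH, the dehydrogenase for shorter chains, fell from 2246 and 2265 to 1987 and 1747, or by 0.28 on the log2 scale (adjusted p = 0.0462). The call of HADH was held in 1 of the 4 fits that left out a library and was lost with either rescaling. ECHS1 (-0.17), ACAA2 (-0.044), ACADS (-0.11) and ETFDH (0.28), the hydratase, thiolase, short-chain dehydrogenase and electron acceptor of the same spiral, did not pass the test. ACADL, the long-chain dehydrogenase, had 1.18 to 5.69 normalized counts and was not tested.

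Of the listed genes of ketone synthesis and use, 7 were tested and 1 was called (14.3%, against 14.1% of all tested genes). ACAT1 (-0.087), BDH1 (0.012) and OXCT1 (0.16), which make and use ketone bodies, did not pass the test. SLC16A1, a carrier of lactate and ketone bodies, fell from 3586 and 3567 to 2809 and 2761, or by 0.36 on the log2 scale (standard error 0.061, adjusted p = 0.0049). Both knockdown values of SLC16A1 lay below both controls.

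Peroxisomes shorten very long and branched fatty acids. In this list 4 of 14 tested genes were called (28.6%, against 14.1% of all tested genes), 3 higher and 1 lower. AMACR, a racemase for branched chains, rose from 1795 and 1715 normalized counts to 2578 and 2254 (log2 fold change 0.46, adjusted p = 0.0060). CAT, the peroxisomal catalase, rose by 0.27 (adjusted p = 0.0391). When a library was left out, the call of CAT was lost in all 4 fits and that of AMACR in 1 (without siHNF4A replicate 1, 0.0571). PEX5, the receptor that imports peroxisomal proteins, fell from 1581 and 1643 to 1107 and 1099.6, or by 0.55 on the log2 scale (standard error 0.076, adjusted p = 0.0018). The PEX5 values of the knockdown libraries were close to each other and far below both controls.

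**Figure D5:**
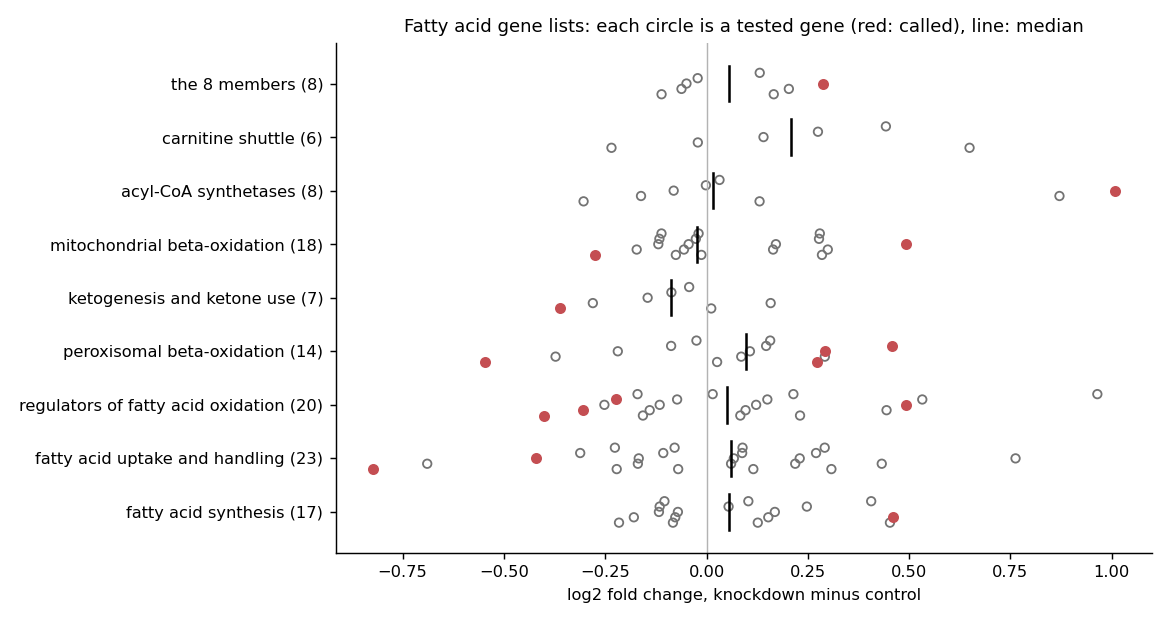
Log2 fold change, knockdown minus control (x axis), of every tested gene of the 9 lists, with the number tested in brackets and the list median as a line; red circles are called genes. The 8 genes lie between -0.11 and 0.29, while called genes of the other lists reach from -0.82 (ACOT7) to 1.01 (ACSM3).

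The regulators included the receptors and coactivators known to drive these genes. Here 4 of 20 tested were called (20%, against 14.1% of all tested genes), 1 higher and 3 lower. PPARA, the fatty acid receptor that induces CPT1A and ACADM in liver, had 1259 and 1100.0 normalized counts in the controls, against 1312 and 1185 after knockdown. Its groups overlapped, and the log2 fold change was 0.083 with a 95% interval from -0.13 to 0.30. ESRRA, a receptor regulator of mitochondrial genes, fell from 1638 and 1691 to 1293 and 1225, or by 0.40 on the log2 scale (adjusted p = 0.0078). RXRB, a partner of PPAR receptors, rose from 718 and 713 to 1033 and 981 (0.49, adjusted p = 0.0059). TFAM, the mitochondrial genome packaging factor, fell by 0.30 (adjusted p = 0.0262), and NCOR1, a corepressor of nuclear receptors, fell by 0.22 (adjusted p = 0.0484).

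Leaving out siHNF4A replicate 1 ended the call of RXRB (0.0534), and leaving out siHNF4A replicate 2 ended those of ESRRA (0.0637) and TFAM (0.190). NCOR1 kept its call in 1 of the 4 such fits and lost it with either rescaling. PPARGC1A, the coactivator of oxidative genes, had 130 to 173 normalized counts (log2 fold change -0.17, adjusted p = 0.609). The enzymes that set malonyl-CoA, the inhibitor of CPT1A, did not pass the test: ACACA changed by -0.077 and ACACB by -0.073. MLYCD, which degrades malonyl-CoA, had 140 and 118 in the controls, against 174 and 201 after knockdown (0.53, adjusted p = 0.0750).

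Among genes of fatty acid uptake and handling 2 of 23 tested were called (8.7%, against 14.1% of all tested genes), both lower. ACOT7, a cytosolic acyl-CoA thioesterase, fell from 1912 and 2073 normalized counts to 1135 and 1115, or by 0.82 on the log2 scale (standard error 0.078, adjusted p = 2.45e-04). PNPLA2, the lipase that starts the release of stored fat, fell from 626 and 731 to 510.0 and 500.0 (by 0.42, adjusted p = 0.0316), a call held in 1 of the 4 fits that left out a library. Of 17 tested genes of fatty acid synthesis 1 was called (5.88%). This was ME1, a source of NADPH, which rose from 1805 and 2014 to 2465 and 2794 (0.46, adjusted p = 0.0071). Its call was lost without siHNF4A replicate 2 (0.0658).

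The genes whose profile over the 4 libraries was most like that of ACADVL were ZMYND8, PLXNA3 and FAM195B. Likeness was the Euclidean distance between log2 values centred on each gene's mean, over 10917 genes with a mean of at least 100. The distances were 0.016, 0.017 and 0.022, and none of the 3 was called in limma (adjusted p = 0.0805, 0.0898 and 0.231). Their log2 fold changes, 0.294, 0.274 and 0.295, were close to the 0.287 of ACADVL. Their standard errors were larger, at 0.0995, 0.0961 and 0.151 against 0.0793, so the call does not mark a larger change in ACADVL. ZMYND8 had 793 and 728 normalized counts in the controls, against 993 and 874 after knockdown, the order of the libraries seen in ACADVL.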

How the data were processed

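The authors deposited 1 RNA-seq table of normalized counts, a signal value per gene symbol and library. The counting program, annotation and scaling are not given in the sources used here; the submitters' processing notes name Trim Galore, Bowtie, Bowtie2, Picard, MACS2 and hg19 with no role. Columns were matched to libraries by title. Values under 1.5 in genes seen in 1 library gave the relative depths, but only 58.1% to 67.5% of such genes' values were whole multiples of the step (to within 2%), so reads were not recovered, absolute depth is unknown and no count model was used.

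Genes with a mean of at least 10 were fitted with limma 3.58.1 (R 4.3.3; lmFit, then eBayes with trend = TRUE) on values transformed as log2(normalized count + 1), a scale that understates changes of low genes, and p-values were adjusted over all tested genes. The code was checked on simulated data. The rule for the 8 genes names them and uses no measured value, but the genes, the lists and the tests were chosen with earlier results of these data known, so the choice was not blind to them. Some listed genes are not reported here. Genes named are the 8, HNF4A, called genes of the lists, a fixed set of 22 partner enzymes and regulators, and the 3 nearest profiles to the gene of smallest p. CRAT, overlapping or flanking genes, and the cell type markers given by name were picked after their values were seen. The written plan counted 7 further lists where it held 8. Other pseudocounts, filters, scalings, a fit without trend, a replicate block and leaving out each library were tried. Gene order and sequences come from RefSeq GRCh38.p14. The ChIP-seq peaks and 4C libraries were not analysed here.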

Additional observations from a re-analysis of the deposited data

How the results depend on the processing

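There were 2 libraries per group and absolute depth is unknown, so no interval for counting error was given. The count of called genes, 2202 over the whole table, fell to 726 when the filter was dropped and every gene detected in any library was tested, where 0 of the 8 genes (3 at an unadjusted p under 0.05) and 6 of the other listed genes were called. Without the variance trend limma called 0 genes in all (3524 at an unadjusted p under 0.05), 0 of the 8 (0 at an unadjusted p under 0.05) and 0 of the other listed genes (22), and HNF4A, at -1.97, had an adjusted p of 0.0919. Leaving out 1 library gave 906 to 2413 calls in all, 0 to 1 among the 8 and 7 to 16 among the other listed genes; the low counts came without siHNF4A replicate 1 (985 and 8) and without siHNF4A replicate 2 (906 and 7). The lone library of a group was then assumed to vary like the others. Where 0 of the 8 were called, 2 (without control replicate 2), 0 (without siHNF4A replicate 1) and 2 (without siHNF4A replicate 2) had an unadjusted p under 0.05. In these fits, signs changed for CPT1A (-0.12 to 0.076), ACADM (-0.16 to 0.038) and ACSL1 (-0.15 to 0.052), none of them called. With all 4 libraries, 62 of 64 alternative values of the 8 genes kept their direction and their side of the threshold, and the other 2 were the lost calls of ACADVL. The replicate block gave 2428 calls and left 1 of the 8 called; same-numbered libraries did not deviate together (Pearson r of -0.019 across 15577 genes, which are not independent), so the numbers were not taken as pairs.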
